A study of Mus musculus with 18 samples.

Results

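The genes described here encode the enzymes of the tricarboxylic acid (TCA) cycle, the enzymes that refill it (anaplerosis) and those of the malate-aspartate shuttle. They are 30 listed genes, found in the deposited count table by their GENCODE M21 symbols, out of 55450 genes in the table and 16270 with enough reads to be tested, and all 30 were among the 16270. By role, 12 encode enzymes of the cycle, 2 encode parts of the pyruvate dehydrogenase complex through which pyruvate enters it, 3 handle isocitrate with NADP or 2-hydroxyglutarate, 10 are anaplerotic and 3 are counted with the shuttle. Mdh2 serves both the cycle and the shuttle and is counted in the cycle. RNA was sequenced from left ventricle of male FVB/N mice in 4 groups. WT CD (n = 4) were wild-type littermates on control diet, and WT ERTU (n = 5) were wild-type mice given chow with 0.5 mg/g ertugliflozin (ERTU), an inhibitor of the sodium-glucose cotransporter SGLT2. Gαq CD (n = 5) and Gαq ERTU (n = 4) were mice with cardiac-specific overexpression of Gαq, the G protein subunit encoded by Gnaq, on the same diets. The promoter of the transgene is not given in the sources used here. Diets began at 4 weeks of age and lasted 16 weeks in each group, so all hearts were taken from mice of about 20 weeks.

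The TCA cycle condenses acetyl-CoA with oxaloacetate and oxidises the product back to oxaloacetate, which yields the NADH and FADH2 that feed the respiratory chain, and it is the common end of fatty acid, glucose and ketone oxidation in the heart. Anaplerotic enzymes add intermediates that the cycle loses, from pyruvate, from propionyl-CoA or from amino acids. The malate-aspartate shuttle carries the electrons of cytosolic NADH into mitochondria and is the main such shuttle of cardiac muscle.

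The 18 libraries held 15383566 to 20908363 counts. In counts per 1000000 of the library total (CPM, with TMM scaling), Gnaq ran from 45.5 to 229.7 in WT libraries and from 1641 to 11672 in Gαq libraries, in which transgene and endogenous reads cannot be separated. Markers of cardiomyocytes were abundant in every group, with 8 genes summing to between 67139 and 103828 CPM in a library. Markers of fat and atrium summed to between 1.69 and 106.2 CPM and between 2.26 and 702.9 CPM. No marker gene was at 0 in every library. Libraries are named by group and number, and values are listed in the order WT CD 1, 2, 4 and 5, WT ERTU 11 to 15, Gαq CD 6 to 10, and Gαq ERTU 16, 17, 18 and 20.

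The genotype comparison asked which of these genes differ between Gαq and WT hearts when diet is also a term of the model. All 30 differed at an adjusted p under 0.05 (edgeR quasi-likelihood test, Benjamini-Hochberg over 16270 genes). Of these, 29 were lower in Gαq and 1, Me2, was higher. Over all genes tested, 19.6% were called, 9.92% lower and 9.72% higher. Among the 8240 genes with a mean level of at least that of the lowest member (15.4 CPM), 23.2% were called and 14.5% were called lower. The median log2 fold change was -0.44 over the 30 genes and 0.00 over all genes tested. In bulk tissue, fewer cells of a type and less RNA per cell cannot be told apart.

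**Figure D1:**
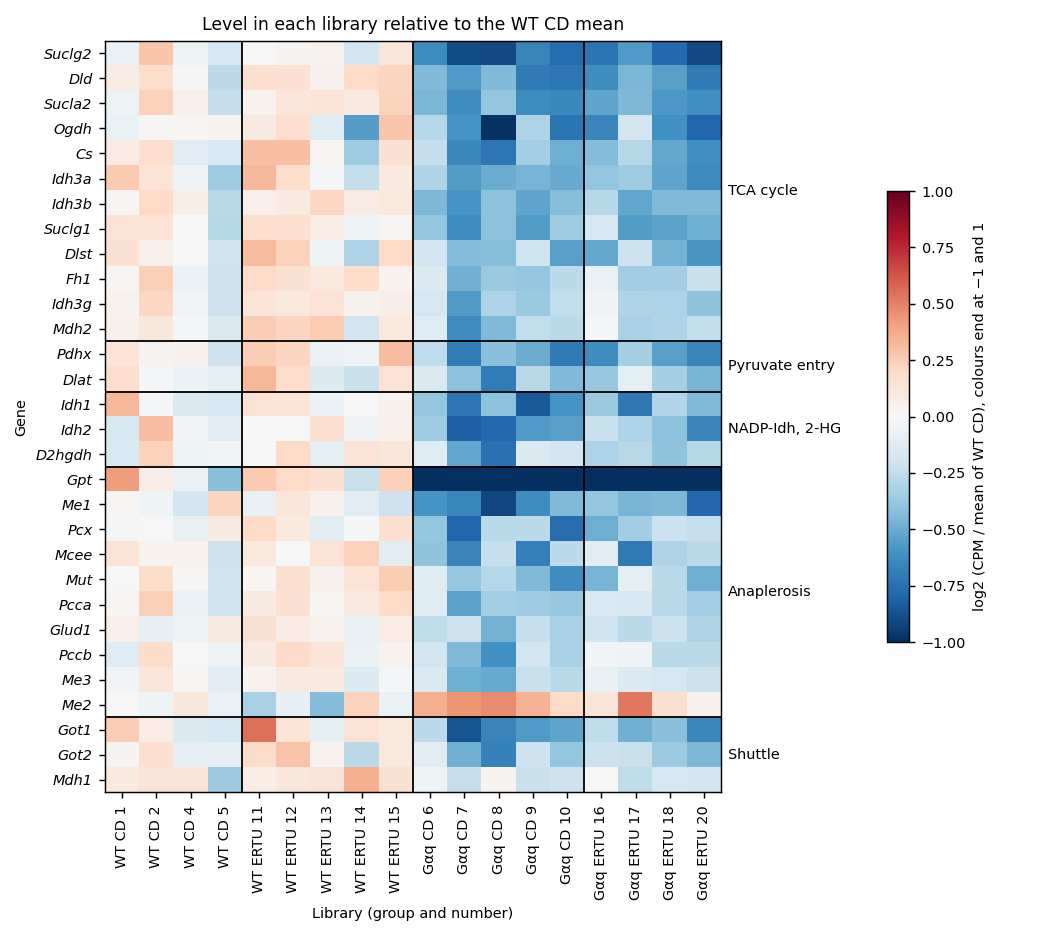
Level of each of the 30 genes (rows, grouped by role) in each of the 18 libraries (columns, grouped by genotype and diet), as the log2 ratio of its CPM to the WT CD mean. Columns of Gαq libraries are mostly blue (lower), with Gpt at the end of the colour scale in all of them. Me2 is red (higher) in the Gαq CD columns and near white in most of the Gαq ERTU columns.

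The 12 cycle enzymes were all lower in Gαq, with log2 fold changes from -0.76 to -0.34 and a median of -0.51. The largest fall was in Suclg2 (ENSMUSG00000061838, chromosome 6, 95473009 to 95718800, mouse build GRCm38), the beta subunit of GTP-forming succinyl-CoA ligase. Suclg2 stood at 182, 229, 183 and 169 CPM in WT CD, 189.9, 193, 194, 165 and 206 in WT ERTU, 123, 102, 101, 119 and 111 in Gαq CD and 114, 128, 111 and 102 in Gαq ERTU. Every Gαq library was below every WT library, and the log2 fold change was -0.76 ± 0.07 (SE, adjusted p = 1.38e-07). Of the 100-base stretches of Suclg2 transcripts, 11.9% also occur in another annotated gene, Gm15163, so part of its reads could have been left uncounted.

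Dld (ENSMUSG00000020664, chromosome 12, 31331277 to 31351453) encodes dihydrolipoamide dehydrogenase, the E3 subunit that the pyruvate, 2-oxoglutarate and branched-chain keto acid dehydrogenase complexes share. Its levels were 673, 718, 641 and 529 CPM in WT CD, 709, 707, 655, 729 and 738 in WT ERTU, 469, 429, 467, 389.6 and 386.4 in Gαq CD and 414, 463, 436 and 390.1 in Gαq ERTU. The ranges of the genotypes did not meet, and Dld fell by 0.66 on the log2 scale (SE 0.07, adjusted p = 9.4e-07). Sucla2 (ENSMUSG00000022110, chromosome 14, 73525319 to 73596142), the beta subunit of the ATP-forming succinyl-CoA ligase, stood at 815, 992, 876 and 716 CPM in WT CD, 867, 918, 928, 902 and 987 in WT ERTU, 614, 549, 644, 547 and 541 in Gαq CD and 585, 617, 566 and 551 in Gαq ERTU. It also separated the genotypes completely, with a log2 fold change of -0.61 ± 0.07 (adjusted p = 1.51e-06).

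Per kilobase of exon, Sucla2 exceeded Suclg2 in every library. The ratio was 5.17 ± 0.272 (SD, n = 4) in WT CD, 5.65 ± 0.392 (n = 5) in WT ERTU, 6.08 ± 0.801 (n = 5) in Gαq CD and 5.94 ± 0.294 (n = 4) in Gαq ERTU, and its ranges overlapped between genotypes. Suclg1, the alpha subunit that both ligases share, fell by 0.49 on the log2 scale. All 3 subunit genes were therefore among the lower genes.

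Promoter sequence (250 bases before to 50 after the start site, RefSeq, GRCm38.p6) was matched for 26 of the 30 genes, with 35 promoters, and not for Gpt, Idh3a, Me2 and Mut. Both strands were searched for 4 motifs of factors known to act on nuclear genes of mitochondria. These were TNAAGGTCA (estrogen-related receptors), GCGCA and GCGC with any base between them (NRF1), AGGTCA repeated after any base (the DR1 site of PPAR and RXR, which shares AGGTCA with the motif of estrogen-related receptors) and AANATGGCG (YY1). NRF1 letters were in the promoters of 3 of 26 genes, Dld, Sucla2 and Pccb, against 5.19% of 27025 genes. YY1 letters were in those of 3 genes, Idh3g, Ogdh and Pccb, against 2.76%. The motif of estrogen-related receptors (1.43% of genes) and DR1 (0.048%) were found in none of the 26. The promoters with NRF1 letters are shown because Dld and Sucla2 were among the cycle genes with the largest falls and Pccb had the smallest p by diet. Capitals mark the NRF1 letters or their reverse complement in each and AANATGGCG near the end of the Pccb window, and each sequence is written 5′ to 3′ on the strand of its gene.
Dld, chr12:31351422-31351721, minus strand: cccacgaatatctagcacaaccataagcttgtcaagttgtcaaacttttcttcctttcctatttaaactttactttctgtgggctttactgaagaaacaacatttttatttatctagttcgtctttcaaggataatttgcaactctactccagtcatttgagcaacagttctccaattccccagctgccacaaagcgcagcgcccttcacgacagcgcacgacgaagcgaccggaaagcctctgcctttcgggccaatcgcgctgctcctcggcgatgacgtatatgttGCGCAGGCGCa
Sucla2, chr14:73552536-73552835, plus strand: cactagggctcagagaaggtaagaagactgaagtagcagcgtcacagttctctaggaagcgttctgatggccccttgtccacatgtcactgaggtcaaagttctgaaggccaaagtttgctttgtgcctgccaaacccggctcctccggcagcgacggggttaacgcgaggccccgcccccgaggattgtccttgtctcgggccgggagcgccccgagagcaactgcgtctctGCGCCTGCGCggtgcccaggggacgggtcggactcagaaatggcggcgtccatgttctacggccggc
Pccb, chr9:101034835-101035134, minus strand: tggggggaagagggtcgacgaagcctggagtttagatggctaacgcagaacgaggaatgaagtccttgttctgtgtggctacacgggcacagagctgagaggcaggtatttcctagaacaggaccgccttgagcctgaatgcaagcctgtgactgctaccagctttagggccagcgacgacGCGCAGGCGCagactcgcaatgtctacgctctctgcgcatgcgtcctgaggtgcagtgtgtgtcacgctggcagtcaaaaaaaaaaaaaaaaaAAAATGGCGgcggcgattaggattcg
Counted from the start-site base as 0, the NRF1 letters began at 39 in Dld, -17 in Sucla2 and -69 in Pccb, and the YY1 letters of Pccb at 24. A match of letters describes the window and does not show binding.

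The other cycle enzymes fell by less than Sucla2. Ogdh and Dlst, the E1 and E2 subunits of the 2-oxoglutarate dehydrogenase complex, had log2 fold changes of -0.55 ± 0.12 and -0.45 ± 0.09. Cs, citrate synthase, had -0.52 ± 0.09. The subunits of NAD-dependent isocitrate dehydrogenase had -0.52 ± 0.09 in Idh3a, -0.51 ± 0.07 in Idh3b and -0.34 ± 0.07 in Idh3g. Fh1 (fumarase) and Mdh2 (mitochondrial malate dehydrogenase) had -0.35 ± 0.07 and -0.34 ± 0.08. Adjusted p-values of these genes ran from 8.95e-06 in Idh3b to 0.00415 in Mdh2. Ogdh was the most variable of the 30 genes, with a within-group SD of 0.27 on the log2 scale against a median of 0.17, and its values were 2766, 2921, 2944 and 2972 CPM in WT CD and 3082, 3254, 2652, 1974 and 3521 in WT ERTU. WT ERTU library 14 was thus at the level of Gαq libraries for Ogdh, which had 2377, 1929, 1465, 2342 and 1745 CPM in Gαq CD and 1835, 2538, 1907 and 1677 in Gαq ERTU.

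Both genes of the pyruvate dehydrogenase complex in the list were lower in Gαq, with a median of -0.49. Pdhx, the protein that holds the E3 subunit in the complex, was at 213, 199.6, 199.7 and 168 CPM in WT CD, 230.1, 225, 186, 189 and 241 in WT ERTU, 163, 119.96, 146, 138 and 119 in Gαq CD and 126, 155, 133 and 123 in Gαq ERTU. No Gαq library reached the lowest WT library, and the log2 fold change was -0.59 ± 0.08 (adjusted p = 1.8e-05). Dlat, the E2 subunit, was at 607, 528, 515 and 501 CPM in WT CD, 676, 607, 488, 459 and 592 in WT ERTU, 485, 404, 329.9, 443 and 396 in Gαq CD and 413, 503, 426 and 389 in Gαq ERTU. Gαq ERTU library 17 and Gαq CD library 6 lay within the range of WT ERTU, and the log2 fold change of Dlat was -0.39 ± 0.09 (adjusted p = 0.0029).

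The 3 genes of NADP-linked isocitrate and of 2-hydroxyglutarate metabolism were lower in Gαq, with a median of -0.52. Idh2, the mitochondrial NADP-dependent isocitrate dehydrogenase (ENSMUSG00000030541, chromosome 7, 80094846 to 80115392), was at 1809, 2507, 1988 and 1870.2 CPM in WT CD, 2025, 2033, 2276, 1973 and 2099 in WT ERTU, 1585, 1150.5, 1183, 1368 and 1392 in Gαq CD and 1741, 1636, 1524 and 1285 in Gαq ERTU. The highest Gαq library, Gαq ERTU 16, was just under the lowest WT library, WT CD 1, and the log2 fold change was -0.52 ± 0.09 (adjusted p = 0.000164). Idh1, its cytosolic counterpart, was at 121, 94.9, 86.4 and 84.9 CPM in WT CD, 106, 105, 91.9, 96.02 and 98.6 in WT ERTU, 72.7, 57.9, 72.1, 53.5 and 63.5 in Gαq CD and 73.97, 58.3, 78.1 and 70.4 in Gαq ERTU. It fell by 0.55 on the log2 scale (SE 0.08, adjusted p = 4.81e-05), again with no overlap. Per kilobase of exon, the ratio of Idh1 to Idh2 was 0.0452 ± 0.0118 (SD, n = 4) in WT CD and 0.0452 ± 0.00755 (n = 5) in Gαq CD, a difference far smaller than the SD.

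D2hgdh oxidises D-2-hydroxyglutarate to 2-oxoglutarate. Its levels were 18.2, 23.6, 19.6 and 19.8 CPM in WT CD, 20.2, 23.2, 18.98, 22.4 and 22.03 in WT ERTU, 18.5, 14.1, 12.03, 18.2 and 17.8 in Gαq CD and 16.3, 16.7, 15.3 and 16.5 in Gαq ERTU. The genotypes overlapped on CD and did not overlap on ERTU. Its log2 fold change was -0.37 ± 0.08 (adjusted p = 0.00306), and 19.1% of its 100-base stretches occur in other annotated genes.

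**Figure D2:**
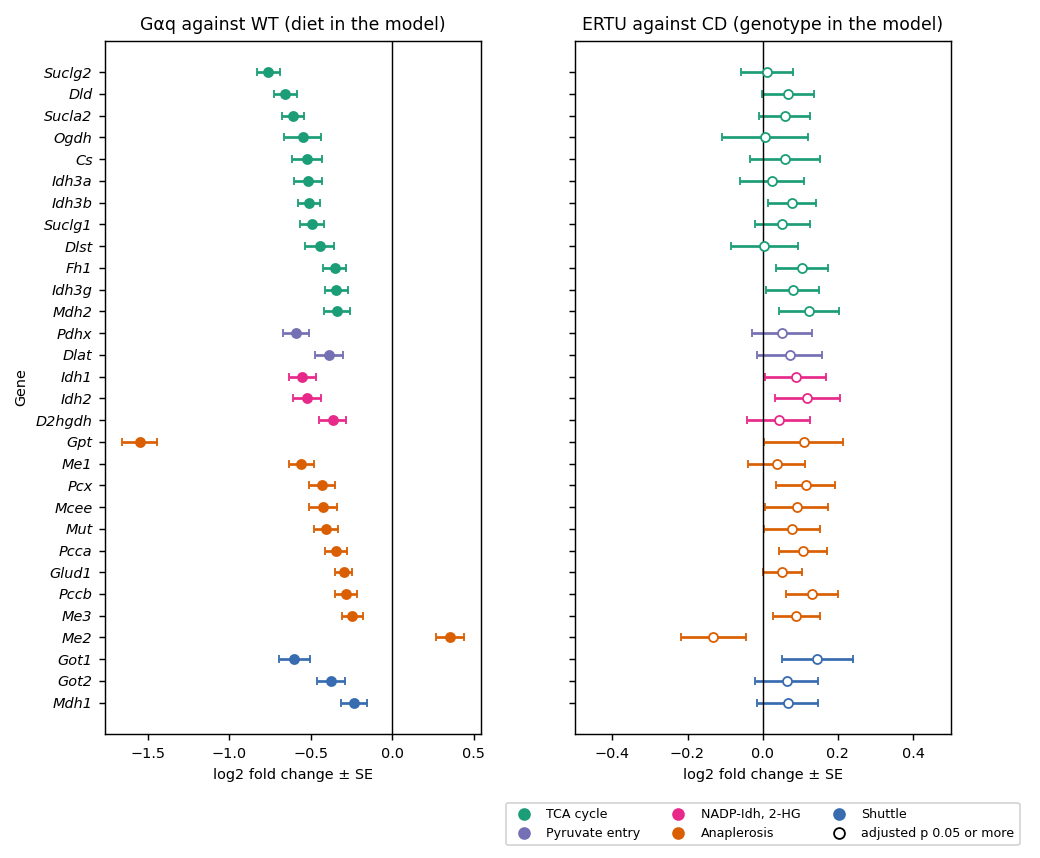
Log2 fold change ± SE of each of the 30 genes for Gαq against WT (left) and for ERTU against CD (right, on a narrower axis), with filled points at an adjusted p under 0.05 and colours for the role. At left 29 genes lie below 0, with Gpt at -1.55 and Me2 above 0, and at right all points are open and lie between -0.13 and 0.15.

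The 10 anaplerotic genes spanned the widest range. In Gαq 9 were lower and 1 was higher, with log2 fold changes from -1.55 to 0.36 and a median of -0.38. Gpt (ENSMUSG00000022546, chromosome 15, 76695716 to 76699686), the cytosolic alanine aminotransferase that interconverts alanine and pyruvate, had the largest change of the 30 genes. It stood at 59.6, 46.5, 42.4 and 33.3 CPM in WT CD, 53.4, 50.7, 49.5, 38.1 and 52.4 in WT ERTU, 16.2, 17.2, 14.6, 17.3 and 12.04 in Gαq CD and 16.3, 19.01, 18.5 and 13.4 in Gαq ERTU. The highest Gαq library was under the lowest WT library by a wide margin, and Gpt was 2.93-fold lower in Gαq (log2 fold change -1.55 ± 0.11, adjusted p = 3.36e-09). Means were 45.5 ± 10.9 CPM (SD, n = 4) in WT CD, 48.8 ± 6.17 (n = 5) in WT ERTU, 15.5 ± 2.2 (n = 5) in Gαq CD and 16.8 ± 2.56 (n = 4) in Gαq ERTU. Per kilobase of exon, the ratio of Gpt to Got1, the cytosolic aspartate aminotransferase, was 0.0461 ± 0.00546 (SD) in WT CD and 0.024 ± 0.00565 in Gαq CD.

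The 3 malic enzymes, which act between malate and pyruvate, did not move together. Me1, the cytosolic NADP-dependent form, stood at 85.9, 82.5, 74.6 and 98.7 CPM in WT CD, 80.8, 92.3, 87.4, 79.1 and 73.6 in WT ERTU, 56.4, 54.00, 45.3, 55.3 and 62.6 in Gαq CD and 65.01, 61.8, 62.3 and 49.3 in Gαq ERTU. All Gαq libraries were below all WT libraries, and its log2 fold change was -0.56 ± 0.08 (adjusted p = 1.99e-05). Me3, the mitochondrial NADP-dependent form, was at 109, 121, 112 and 103 CPM in WT CD, 114, 118, 119, 101 and 109 in WT ERTU, 100.4, 79.1, 78.4, 94.9 and 91.99 in Gαq CD and 106, 101, 98.2 and 95.4 in Gαq ERTU. Its genotypes overlapped on ERTU but not on CD, and it fell by 0.24 on the log2 scale (SE 0.06, adjusted p = 0.00762). Me1 and Me3 share 17.2% and 6.7% of their 100-base stretches with other annotated genes.

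Me2 (ENSMUSG00000024556, chromosome 18), the mitochondrial form that also uses NAD, was the only gene called higher in Gαq. Its levels were 14.01, 13.7, 15.2 and 13.4 CPM in WT CD, 11.2, 13.3, 10.4, 16.5 and 13.5 in WT ERTU, 18.1, 19.1, 19.5, 17.9 and 16.2 in Gαq CD and 15.4, 20.3, 15.7 and 14.5 in Gαq ERTU. On CD each Gαq library exceeded each WT library, while on ERTU the ranges overlapped, with WT ERTU library 14 above 3 of the 4 Gαq ERTU libraries. The log2 fold change was 0.36 ± 0.09 (adjusted p = 0.00543). Me2 was also the lowest of the 30 genes per kilobase of exon, at 1.94 ± 0.11 CPM per kilobase (SD, n = 4) in WT CD against 7.6 ± 0.511 for Me3 and 22.2 ± 2.61 for Me1.

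The enzymes of the propionyl-CoA route to succinyl-CoA were all lower. Pcca and Pccb, the subunits of propionyl-CoA carboxylase, had log2 fold changes of -0.34 ± 0.06 (adjusted p = 0.000578) and -0.28 ± 0.07 (adjusted p = 0.0057). Mcee (methylmalonyl-CoA epimerase) had -0.43 ± 0.08 and Mut (methylmalonyl-CoA mutase) -0.41 ± 0.08. Pcx, pyruvate carboxylase, fell by 0.43 on the log2 scale (SE 0.08, adjusted p = 0.000434), and its genotypes did not overlap. Glud1, glutamate dehydrogenase, was at 204, 187, 191 and 210.2 CPM in WT CD, 219.5, 209, 203, 188 and 208 in WT ERTU, 166, 172, 142, 169 and 158 in Gαq CD and 172, 165, 170.4 and 160.3 in Gαq ERTU. It was the least variable of the 30 genes (within-group SD 0.0851 on the log2 scale), and a small change of -0.30 ± 0.05 left no overlap between genotypes (adjusted p = 0.000349).

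The 3 genes counted with the shuttle were lower in Gαq, with a median of -0.38. Got1 (ENSMUSG00000025190, chromosome 19, 43499752 to 43524605) was at 993, 883, 759 and 739.9 CPM in WT CD, 1225, 923, 784, 926 and 903 in WT ERTU, 701, 461, 530.2, 567 and 583 in Gαq CD and 701, 601, 626 and 535 in Gαq ERTU. The genotypes did not overlap, WT ERTU library 11 stood above all others, and the log2 fold change was -0.60 ± 0.10 (adjusted p = 0.000101). Got2, the mitochondrial aspartate aminotransferase, was at 593, 654, 543 and 546 CPM in WT CD, 664, 711, 596, 482 and 626 in WT ERTU, 541, 417, 365, 505 and 443 in Gαq CD and 502, 499.8, 453 and 426 in Gαq ERTU. It fell by 0.38 on the log2 scale (SE 0.08, adjusted p = 0.00278), and WT ERTU library 14 was within the Gαq range. For Got2, 9.0% of exon bases overlap Gm45760 on the opposite strand and 25.3% of 100-base stretches occur in other annotated genes, so its level is uncertain.

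Mdh1, cytosolic malate dehydrogenase (ENSMUSG00000020321, chromosome 11, 21556787 to 21572367), had the smallest change. Its levels were 2535, 2596, 2595 and 1844 CPM in WT CD, 2479, 2561, 2594, 3037 and 2627 in WT ERTU, 2289.7, 2019, 2417, 2033 and 2048 in Gαq CD and 2361, 1985, 2100.4 and 2078 in Gαq ERTU. WT CD library 5 was the lowest of all 18, and the genotypes overlapped on CD. The log2 fold change was -0.23 ± 0.08 (adjusted p = 0.0454). That call was lost in 14 of the 18 fits that left out 1 library (adjusted p from 0.0538 to 0.0859), and was kept without WT CD 5, Gαq CD 6, Gαq CD 8 or Gαq ERTU 16. It was also lost with no filter on low counts (adjusted p = 0.118) and with limma on the deposited transformed values (adjusted p = 0.0613).

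**Figure D3:**
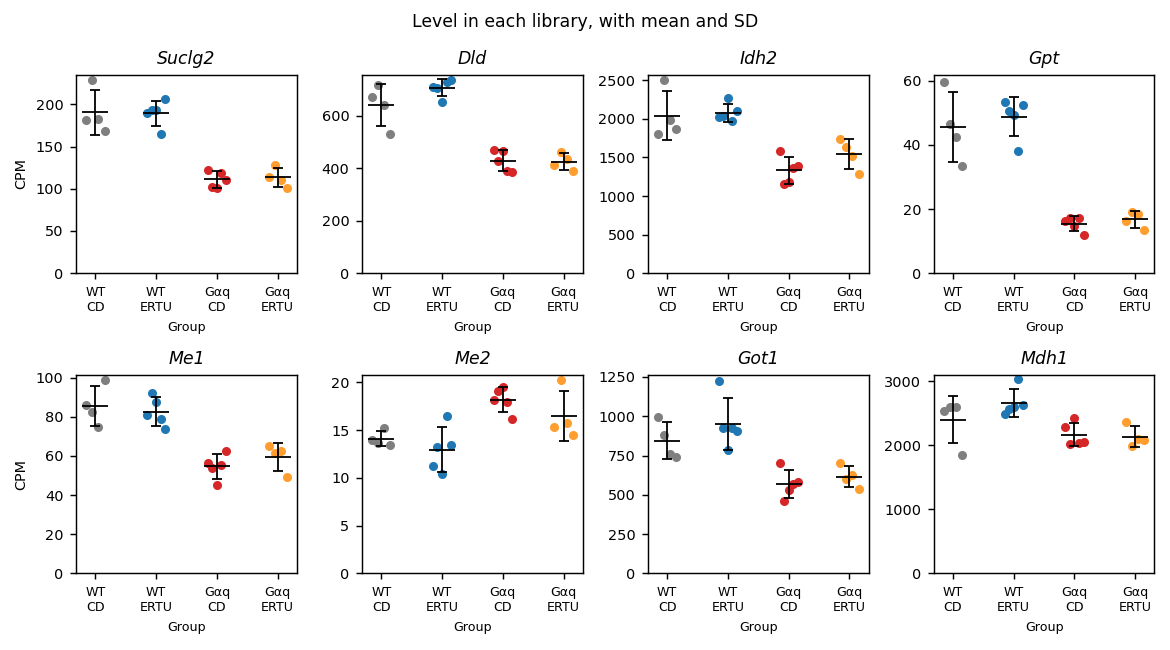
CPM of 8 of the genes in each library (points), with the mean and SD of each group (bars), on axes that start at 0. Points of Gαq lie below those of WT for Suclg2, Dld, Idh2, Gpt, Me1 and Got1, lie higher for Me2 on CD, and overlap for Mdh1.

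Compared by role, the median fall was larger for the cycle (-0.51), pyruvate entry (-0.49) and NADP isocitrate and 2-hydroxyglutarate genes (-0.52) than for the anaplerotic and shuttle genes (-0.38 each). The interquartile ranges ran from -0.56 to -0.42 for the cycle and from -0.43 to -0.29 for anaplerosis, and the full ranges overlapped. Mdh2, at -0.34, was counted in the cycle although it also serves the shuttle. Differences between roles were not tested. With any library left out, the medians stayed between -0.55 and -0.49 for the cycle, between -0.40 and -0.35 for anaplerosis and between -0.41 and -0.34 for the shuttle. By place, the 5 genes of cytosolic enzymes (Idh1, Mdh1, Got1, Me1 and Gpt) spanned -1.55 to -0.23 with a median of -0.56, and the 25 of mitochondrial enzymes had a median of -0.43. As a share of the library total after TMM scaling, the 30 genes made up 1.91% in WT CD, 2.03% in WT ERTU, 1.41% in Gαq CD and 1.46% in Gαq ERTU.

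Within each diet the same direction was found with fewer calls. On CD, 23 of the 30 genes were called lower in Gαq and 0 higher, against 8.1% of all genes called in either direction, 4.1% lower and 4% higher. By role these were 10 of 12 cycle genes, 1 of 2 of pyruvate entry (Pdhx), 2 of 3 of NADP isocitrate and 2-hydroxyglutarate (Idh1 and Idh2), 9 of 10 anaplerotic genes and 1 of 3 shuttle genes (Got1). The anaplerotic gene not called was Me2, at a log2 fold change of 0.37 ± 0.13 (adjusted p = 0.0804), and the cycle genes were Dlst (-0.36 ± 0.13, adjusted p = 0.0902) and Mdh2 (-0.33 ± 0.12, adjusted p = 0.0893). The libraries of the genotypes did not overlap for 20 genes in the lower direction (4.6% of all genes) and for Me2 in the higher (4.7%). The count of 23 fell to 12 without WT CD 1, to 13 without WT CD 2 or Gαq CD 7 and to 15 without Gαq CD 8, and over all genes the count fell as well, from 1318 to 788, 851, 934 and 970. With no filter on low counts, 16 of the 30 genes were called on CD, and 1197 of 30773 genes over all.

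On ERTU, 22 genes were called lower in Gαq and 0 higher, against 8.17% of all genes called, 4.24% lower and 3.93% higher. These were 10 cycle genes, Pdhx, all 3 of the NADP isocitrate and 2-hydroxyglutarate genes, 7 anaplerotic genes and Got1. Not called were Ogdh (-0.54 ± 0.17, adjusted p = 0.0537), Mdh2, Dlat, Pccb, Me2, Me3, Mdh1 and Got2, with adjusted p-values up to 0.286 in Me3. The genotypes did not overlap for 21 genes, all lower (5.49% of all genes lower and 5.4% higher), and over both diets together for 12, all lower (1.83% lower and 1.73% higher), namely Idh3b, Dld, Sucla2, Suclg2, Pdhx, Idh1, Idh2, Pcx, Me1, Glud1, Gpt and Got1. The count fell to 12 without Gαq ERTU 20, with 983 genes called over all in place of 1330. It fell to 14 with no filter on low counts, where 1225 of 30773 genes were called over all.

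The comparison of diets asked whether the same genes differ with ERTU. With genotype in the model, 0 of the 30 genes were called by edgeR, where 0% of all genes were called, and 0 of the 30 had an unadjusted p under 0.05, against 7.7% of all genes (1252). DESeq2 called 0 of the 30, and 2 genes over all (0.0135%). Estimates were above 0 for 29 of the 30 genes, against 49.5% of all genes, with a median of 0.07 on the log2 scale against -0.00. The exception was Me2, at -0.13 ± 0.09. The genes of this set moved together between libraries, so the 29 are not independent, and the number ran from 26 to 29 over fits that left out 1 library and was 25 with sample quality weights.

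The smallest unadjusted p by diet was 0.0716 in Pccb (adjusted p = 0.652, edgeR quasi-likelihood test). Pccb was at 117, 145, 127 and 124 CPM in WT CD, 136, 146, 139.6, 122 and 131 in WT ERTU, 113, 94.4, 83.8, 113 and 102 in Gαq CD and 125, 124, 106 and 107 in Gαq ERTU. ERTU and CD libraries overlapped in both genotypes, and the log2 fold change was 0.13 ± 0.07, with a 95% interval from -0.02 to 0.28. Pcca, its partner subunit, was at 116, 135, 109.9 and 99.6 CPM in WT CD, 122, 127, 116, 122 and 131 in WT ERTU, 105, 78.97, 90.1, 89.5 and 88.1 in Gαq CD and 103, 102, 94.6 and 90.4 in Gαq ERTU. Its log2 fold change of 0.11 ± 0.06 had an interval from -0.03 to 0.24, again with overlap in both genotypes. Got1 had the largest estimate, 0.15 ± 0.09, with an interval from -0.06 to 0.35, and was 0.09 without WT ERTU library 11. All 30 intervals included 0, with upper limits of at most 0.35 and lower limits of at least -0.32 (Me2).

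In WT hearts, 26 of the 30 estimates for ERTU were above 0, against 51.5% of all genes, with a median of 0.07. In Gαq hearts 24 were above 0, against 48.9%, with a median of 0.05. No gene of the set was called in either (edgeR, 0% of all genes called in WT and 0.00615% in Gαq). At an unadjusted p under 0.05 there were 0 of the 30 in either, against 2.24% of all genes in WT and 7.62% in Gαq, and DESeq2 called 0 of the 30 against 0% and 0.0267% of all genes. ERTU and CD libraries were not separate for any of the 30 genes in either genotype, against 0.43% of all genes lower and 0.326% higher in WT and 0.854% and 0.744% in Gαq. The count of positive estimates in WT was 22 without WT CD library 5, and that in Gαq 18 without Gαq ERTU library 17 and 28 without Gαq CD library 6. The median in WT was 0.04 without WT CD library 5 and 0.14 without WT CD library 2, and that in Gαq was 0.03 without Gαq ERTU library 16 and 0.11 without Gαq CD library 6. The mean level of Gnaq was 7473 CPM with an SD of 3818 over the 5 libraries of Gαq CD, against 3216 CPM with an SD of 1371 over the 4 of Gαq ERTU. Their ranges overlapped, from 1641 to 11672 and from 2236 to 5207 CPM, and the part of Gnaq in the comparison within Gαq was not tested. Idh2 had the highest upper limit in Gαq, with a log2 fold change of 0.21 ± 0.12 and a 95% interval from -0.05 to 0.47. Gpt and Suclg2, with the largest genotype falls on CD (-1.56 and -0.78), had 0.12 ± 0.16 and 0.03 ± 0.10 for ERTU in Gαq. Pccb and Me3, with -0.34 and -0.32 on CD, had 0.19 ± 0.10 and 0.17 ± 0.09 for ERTU in Gαq. Dlst had -0.36 on CD and -0.08 ± 0.13 for ERTU in Gαq, where 6 of the 30 estimates were below 0.

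The interaction tests if Gαq hearts respond to ERTU other than WT hearts do. It called 0 of the 30 genes by edgeR (0% of all genes) and 0 by DESeq2, and 0 of the 30 had an unadjusted p under 0.05 against 1.92% of all genes (313). Of the estimates, 12 were above 0 and 18 below, against 48.9% of all genes above 0. Me3 had the smallest p, with an interaction of 0.16 ± 0.12 (adjusted p = 1.0), followed by Me1 with 0.17 ± 0.15. In Me3 the log2 fold change for ERTU was 0.01 ± 0.09 in WT and 0.17 ± 0.09 in Gαq.

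Levels were compared between genes per kilobase of exon. In WT CD the highest were Mdh1 at 932 ± 143 CPM per kilobase (SD, n = 4), Idh2 at 789.6 ± 123, Ogdh at 532 ± 16.9 and Got1 at 332 ± 46.4, so the cytosolic shuttle enzymes and Idh2 stood with the most abundant cycle enzymes. Among the cycle genes, Mdh2 (309 ± 23), Idh3b (288 ± 38.7) and Cs (269 ± 29) followed, and Suclg2 (41.3 ± 5.71) was the lowest. The anaplerotic genes ran from Mcee at 88.5 ± 8.7 and Mut at 64.9 ± 6.92 to Pcx at 9.08 ± 0.431 and Me2. Of the 29 pairs of neighbours in this order, 21 overlapped in their ranges over the libraries of WT CD. The order of neighbours within each library was not compared. The 8 that did not overlap were Idh2 over Ogdh, Ogdh over Got1, Mut over Pdhx, Idh1 over Me1, Gpt over Pcx, Pcx over Me3, Me3 over D2hgdh, and D2hgdh over Me2. This order depends on the length used, the union of all annotated exons, which is 14624 bases in Me3 and 4753 in Pcx. In CPM the WT CD mean of Me3 (111) was above that of Pcx (43.1). Likewise that of Ogdh (2901) was above that of Idh2 (2044).

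**Figure D4:**
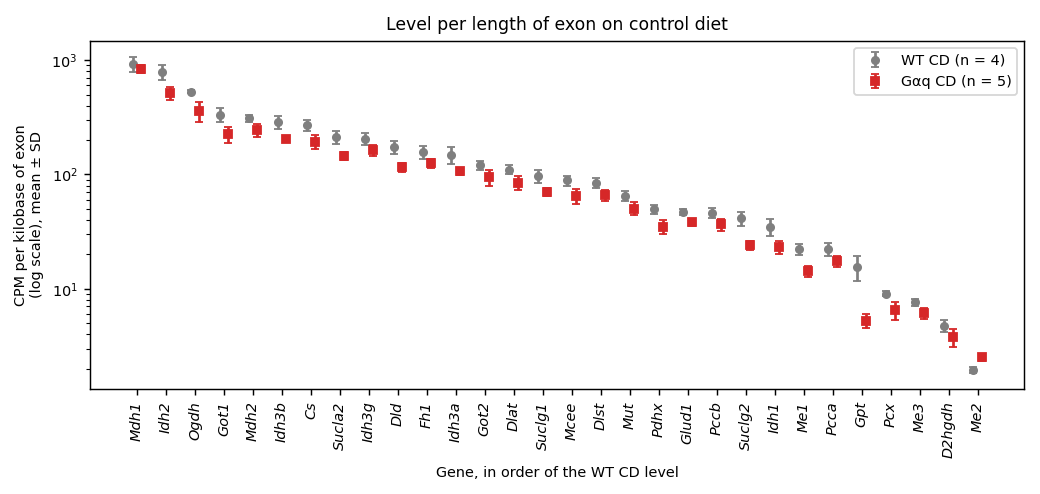
Mean level ± SD in WT CD (circles, n = 4) and Gαq CD (squares, n = 5) of the 30 genes, in CPM per kilobase of exon on a log scale, in the order of the WT CD level. Levels ran from 932 in Mdh1 to 1.94 in Me2, and Gpt shows the widest gap between genotypes.

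Among paired enzymes of cytosol and mitochondrion, the per-kilobase ratio of Mdh1 to Mdh2 was 3.01 ± 0.306 (SD, n = 4) in WT CD, 3.13 ± 0.72 (n = 5) in WT ERTU, 3.47 ± 0.512 (n = 5) in Gαq CD and 3.13 ± 0.108 (n = 4) in Gαq ERTU. That of Got1 to Got2 was 2.74 ± 0.293, 2.97 ± 0.565, 2.39 ± 0.275 and 2.49 ± 0.18 in the same order of groups. The ranges of both ratios overlapped between genotypes on each diet. Pcca to Pccb, subunits of a single enzyme, kept a ratio between 0.422 and 0.572 in all libraries. Me2 to Me3 was 0.256 ± 0.0197 in WT CD and 0.418 ± 0.0711 in Gαq CD without overlap, and ran from 0.177 to 0.329 in WT ERTU against 0.293 to 0.407 in Gαq ERTU.

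Libraries of a group differed in the whole set. WT CD 2 was above its group mean for 25 of the 30 genes and WT CD 5 for 4, with a median deviation of -0.18 on the log2 scale. Gαq CD 6 was above its group mean for 29 genes (median deviation 0.17) and Gαq CD 7 for 4. In WT ERTU 14 the cycle genes deviated by a median of -0.16. WT CD 5 and WT ERTU 14 also had the lowest summed cardiomyocyte markers of their groups (73616 and 67443 CPM). Their fibroblast markers (2416 and 2394 CPM) and atrial markers (223 and 247 CPM) were the highest of their groups. Gαq ERTU 20 stood likewise in its group (67139, 2831 and 481.5 CPM), with a median deviation of -0.12. Gαq CD 8 had the highest fibroblast and atrial sums of all libraries (3490 and 702.9 CPM) and a median deviation of -0.06. Gαq CD 10 had the lowest cardiomyocyte sum of its group (67718 CPM) and deviated by -0.01. Gαq CD 7, at -0.11, had an atrial sum of 5.23 CPM. The part of these markers in the low values was not tested. The median within-group SD of the 30 genes, 0.17, was close to the 0.17 of the 8240 genes at such levels.

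Other genes of these pathways were taken from a separate list of 27 that could be tested, which holds subunits and carriers not among the 30. By genotype 16 of the 27 were lower in Gαq and 0 higher (9.92% and 9.72% of all genes), with a median of -0.35. The subunits of succinate dehydrogenase, the enzyme between succinyl-CoA ligase and fumarase, were all lower (Sdha -0.57 ± 0.07, Sdhb -0.41 ± 0.07, Sdhc -0.51 ± 0.08 and Sdhd -0.26 ± 0.07), as were Pdha1 and Pdhb (-0.39 ± 0.07 and -0.49 ± 0.07, the E1 subunits of pyruvate dehydrogenase). Of the shuttle carriers, Slc25a11 (oxoglutarate and malate) and Slc25a12 (aspartate and glutamate) fell by 0.43 and 0.35 on the log2 scale, and Slc25a13, another aspartate and glutamate carrier, had -0.19 ± 0.10 (adjusted p = 0.218). Gpt2, the mitochondrial alanine aminotransferase, fell by 0.50 on the log2 scale (SE 0.10, adjusted p = 0.0014), against -1.55 for Gpt, and the difference between the isoforms was not tested. Adhfe1, which forms D-2-hydroxyglutarate, fell by 0.71 on the log2 scale. By diet none of the 27 was called by edgeR, 3 had an unadjusted p under 0.05 (7.7% of all genes), and Gpd1, cytosolic glycerol-3-phosphate dehydrogenase of the other NADH shuttle, had the smallest (0.34 ± 0.11, adjusted p = 0.639).

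Some markers of cell types differed with genotype as well, where 9.92% of all genes tested were called lower and 9.72% higher. Of the 8 cardiomyocyte markers 3 were lower in Gαq (Myh6 -0.46 ± 0.13, Tnni3 -0.27 ± 0.09 and Ryr2 -0.82 ± 0.15), with a list median of -0.09. Their summed level was 73616 to 103828 CPM in WT CD, 67443 to 99489 in WT ERTU, 67718 to 89667 in Gαq CD and 67139 to 92586 in Gαq ERTU, so the groups overlapped. Of the 6 fibroblast markers 5 were higher, with a median of 0.61, and their summed level was 1303 to 2416 CPM in WT CD, 1213 to 2394 in WT ERTU, 2443 to 3490 in Gαq CD and 2380 to 2831 in Gαq ERTU. Endothelial markers were lower for 2 of 5 and macrophage markers higher for 1 of 5. The skeletal muscle marker Tnnt3 was higher (1.25 ± 0.38, adjusted p = 0.0248), while Mylpf of the same list had 0.08 ± 0.23 and was not called. Myh1, Myh2 and Myh4 had too few reads to be tested. Skeletal muscle markers summed to 8.23 CPM in Gαq ERTU 20 and to at most 3.11 CPM in any other library. The 3 atrial markers tested had a median of 1.65 with 0 called. The part of cell makeup in the lower levels of the 30 genes was not tested.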

How the data were processed

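Left ventricular RNA of 18 libraries from 4 groups was analysed. The authors aligned reads to mm10 with STAR (2.6.0c) and counted read pairs per Ensembl gene with featureCounts of Subread (1.6.2). The deposited counts were raw and unnormalised. The authors also deposited log2-like values, to which they had applied DESeq2 for variance stabilization (the version differs between the sources). Kit strandedness was not given in the sources used here. Of 55450 gene IDs, 55190 matched GENCODE M21.

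Genes kept by filterByExpr (16270) were tested with edgeR 4.0.16 in R 4.3.3 (TMM, quasi-likelihood F test, Benjamini-Hochberg, threshold 0.05). Genotype and diet came from a model with both factors, and 5 further comparisons from a model with 1 mean per group. SE is the absolute log2 fold change divided by the square root of F, and 95% intervals use it with the residual degrees of freedom. Values per library are CPM with TMM factors, and spreads use log2 CPM with a prior count of 2. Exon length is the union of exons. The precision of each value is given by the spread between libraries of different hearts, and intervals from counting error were not used. The steps were tested on simulated counts.

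The members, gene lists and comparisons were chosen with earlier results of these data known. Values in every library are given for up to 3 genes per role with the smallest p by genotype, the 3 with the smallest p by diet, the 2 with the smallest interaction p and any called higher in Gαq. Ogdh was added for its spread, after its values were seen. Alternatives were median-of-ratios size factors, other filters, DESeq2 1.42.0 (Wald test), limma (3.58.1) on the deposited transformed values and after voom with quality weights, fits of only the compared groups, the average of both effects and fits without each library. Counts of positive diet estimates under these were added after seeing the data. Nnt, whose symbol has 2 gene IDs, was left out of the list of further pathway genes. The columns name the group of each library, and no column was left without a group.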

Additional observations from a re-analysis of the deposited data

Results flagged for a closer look

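Each of the 30 genes was examined in each of the 4 groups, and 4 of the 120 sets of values held a library whose gap to the nearest other, as a share of the whole range, was above Dixon's critical value at the 95% level. Chance gives about 6 such sets in 120, or about 1 in 20. Mdh1 was lowest in WT CD library 5, at 1844 CPM with 2535 to 2596 in the rest of its group, and highest in WT ERTU library 14, at 3037 CPM with 2479 to 2627 in the rest. WT ERTU library 14 was also lowest for Gpt, at 38.1 CPM against 49.5 to 53.4. Gαq ERTU library 16 was highest for Suclg1, at 394.7 CPM against 302 to 318. No gene of the set met the other rules for a closer look, a tested difference between genotypes in the effect of ERTU or a signal outside the main measurement.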

How the results depend on the processing

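No paired analysis was possible because library numbers in the tables run through the whole series and are not the replicate numbers of the labels. With no filter on low counts, p-values are adjusted over 30773 genes. The number of genes called between Gαq and WT then moved from 22 to 14 on ERTU and from 23 to 16 on CD. Over all genes it moved from 1330 to 1225 on ERTU and from 1318 to 1197 on CD. With 1 library left out, counts of called genes ran from 29 to 30 by genotype, from 12 to 25 on CD alone and likewise from 12 to 25 on ERTU alone (both for Gαq against WT), and from 0 to 0 for diet, ERTU in WT, ERTU in Gαq and the interaction. The cause was not tested. Medians of the genotype effect ran from -0.55 to -0.49 for the cycle, from -0.52 to -0.46 for pyruvate entry, from -0.56 to -0.46 for NADP isocitrate and 2-hydroxyglutarate, from -0.40 to -0.35 for anaplerosis and from -0.41 to -0.34 for the shuttle. No genotype effect of the 30 genes changed sign in any alternative run, and only Mdh1 lost its call, in 14 fits without 1 library, with no filter on low counts and on the deposited transformed values. The Wald test of DESeq2 called 30 genes by genotype, 26 on CD alone and 27 on ERTU alone. Over all genes it called 3527, 1670 and 1764, against 3196, 1318 and 1330 by edgeR. Upper limits of the intervals by diet ran from 0.05 to 0.35 on the log2 scale over the 30 genes, and effects inside a gene's interval could not be told from 0 with these libraries.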
